A study of Mus musculus with 20 samples.

Results

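The long H3K27me3 domains described here are 661 stretches of the mouse genome, each at least 8 kb wide, in which peaks of this histone mark ran on with little or no interruption. They were found by merging the overlapping peaks of H3K27me3 replicates 2 and 3, keeping merged regions of 8 kb or more with a peak in both lists. The 2 lists merged into 39704 regions, of which 10317 had a peak in both, and the 661 long domains were 6.41% of those. The domains were thus selected on the peak positions and the merged width in replicates 2 and 3, which are given as description, and the tests rest on other libraries.

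The data come from CUT&Tag, in which an antibody tethers a transposase to a chromatin protein or histone modification so that the neighbouring DNA is cut out and sequenced. All libraries were made from nuclei of C57BL/6J embryos at E11.5 (the embryonic day), from the tissue labelled CVG, which in inner ear work stands for the cochleovestibular ganglion, the source of auditory and vestibular neurons. No treatment or mutation is labelled, and the groups differ only in the antibody: 4 libraries against ISL1 (ISL1_26, n = 1, and ISL1_70, n = 3), 2 against POU4F1, 2 against H3K4me3, 3 against H3K27me3 and 3 against H3K27ac. The meaning of 26 and 70 in the ISL1 labels is not explained, and nothing says that replicates are separate dissections or embryos, so p-values measure only the spread between these libraries, which may be technical. The 6 IgG libraries (IgGR and IgGM) were not analysed here. A dissected ganglion is a mixture of cells, and a region with both an active and a repressive mark may carry them in different cells.

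H3K27me3 is laid down on histone H3 by Polycomb repressive complex PRC2 and is recognised by PRC1, and together they keep developmental genes silent in cells that do not use them. In mammals the mark collects over CpG islands, and it spreads into broad domains over clusters of developmental regulators such as the Hox genes. H3K4me3 marks promoters and H3K27ac marks active promoters and enhancers. ISL1, a LIM homeodomain factor, and POU4F1, a POU homeodomain factor, are transcription factors of sensory neurons.

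Promoter windows of 3 genes are given as examples of sequence under such domains. They were taken from named genes ranked by the factor libraries with a summit in the window, then by domain width. The choice therefore favours windows with a factor summit. The windows run from 250 bases before to 50 bases after an annotated start (RefSeq, GRCm38.p6). They are in lower case 5′ to 3′ with CpG dinucleotides in capitals. Islr2 codes for a membrane protein of axons. Its window, chr9:58202295-58202594 on the minus strand, held ISL1 summits of 2 libraries and 11 CpG. Foxf2 codes for a forkhead factor of mesenchyme. Its window, chr13:31625566-31625865 on the plus strand, held 1 factor library's summit and 27 CpG. Hoxa3, an anterior Hox gene, leads the longest Hox domain. Its window, chr6:52213018-52213317 on the minus strand, held no factor summit and 20 CpG.
Islr2: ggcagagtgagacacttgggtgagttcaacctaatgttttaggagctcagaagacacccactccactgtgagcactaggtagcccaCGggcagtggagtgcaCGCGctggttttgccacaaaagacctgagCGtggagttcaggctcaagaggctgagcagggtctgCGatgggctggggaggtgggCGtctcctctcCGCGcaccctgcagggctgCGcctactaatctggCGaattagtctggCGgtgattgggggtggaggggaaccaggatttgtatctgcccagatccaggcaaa
Foxf2: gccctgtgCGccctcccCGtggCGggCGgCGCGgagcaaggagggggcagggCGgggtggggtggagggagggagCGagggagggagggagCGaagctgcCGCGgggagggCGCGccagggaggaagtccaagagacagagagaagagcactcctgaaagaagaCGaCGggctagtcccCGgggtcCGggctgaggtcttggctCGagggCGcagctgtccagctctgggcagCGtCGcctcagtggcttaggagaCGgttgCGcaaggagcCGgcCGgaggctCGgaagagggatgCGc
Hoxa3: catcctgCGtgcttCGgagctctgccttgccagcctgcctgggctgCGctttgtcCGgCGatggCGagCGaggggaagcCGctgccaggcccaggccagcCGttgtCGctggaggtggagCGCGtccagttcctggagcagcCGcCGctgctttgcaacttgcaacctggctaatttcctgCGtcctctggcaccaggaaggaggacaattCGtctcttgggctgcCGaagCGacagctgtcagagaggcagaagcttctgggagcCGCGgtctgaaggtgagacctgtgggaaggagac

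Of 17492 protein-coding genes in the promoter table, 394 had an annotated start in a long domain, a background of 2.25%. Across the domains, 468 promoter windows of 392 genes that lay wholly inside held a median of 19 CpG, with quartiles at 11 and 27. The 2367 windows in shorter regions with a peak in both lists had a median of 18, and all 21263 protein-coding promoter windows had 13. The median ratio of observed to expected CpG was 0.694 in the domains, 0.639 in the shorter regions and 0.567 over all windows. The letters CTAATG, a homeodomain-type motif searched on both strands, were in 5.56% of the windows in domains and 6.44% of all windows. TAATTA, a homeodomain core that reads the same on both strands, was in 4.49% and 4.53%. Factor summits lay in 40 of the 468 windows (8.55%), against 16.2% of the windows in shorter regions and 13.6% of all windows. Summits of 2 or more factor libraries lay in 3 of the 468 (0.641%), against 1.56% in shorter regions and 1.72% of all windows.

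The domains summed to 8.74 Mb, or 0.321% of the genome up to the last peak, and made up 26.4% of all bases in regions with a peak in both lists. Their widths ran from 8.005 to 88.4 kb with a median of 11.1 kb, and 139 reached 16 kb, 71 reached 20 kb and 17 reached 30 kb. The 9656 shorter regions had a median of 2.01 kb. The 3 narrowest domains measured 8.005 kb (Pdlim2 and Sorbs3), 8.006 kb (Tdrd6) and 8.006 kb (Rbpms2), and the 3 widest regions left out measured 7.997 kb (Npr1), 7.992 kb (no protein-coding gene) and 7.986 kb (Srd5a2). No merged region of 8 kb or more had a peak in 1 list only. Both lists covered 86.9% of the domains' bases, and 331 domains held a single peak of at least 8 kb in each list. In 43 domains no single peak reached 8 kb, and the width came from overlaps between the lists.

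**Figure D1:**
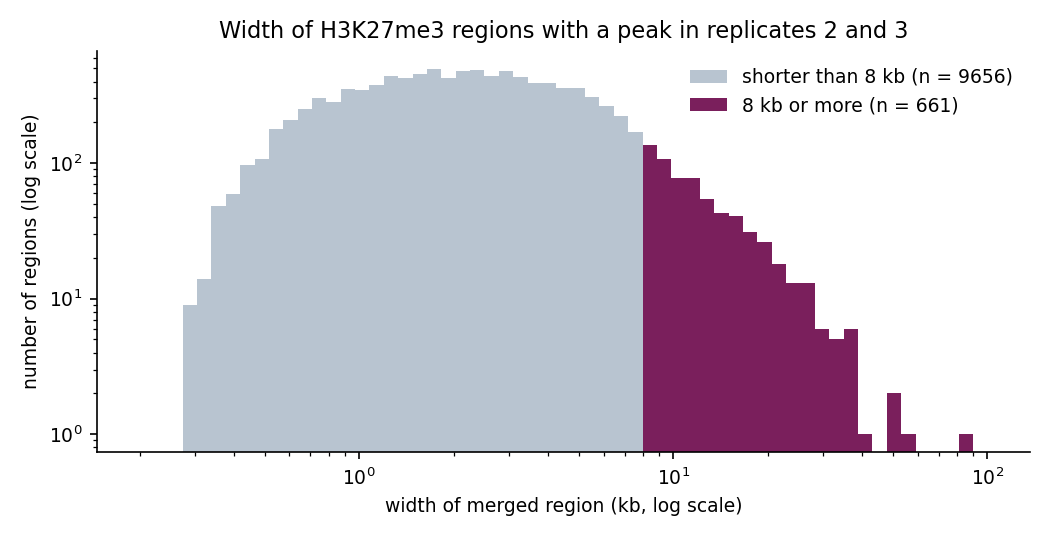
Number of H3K27me3 regions (log scale) by width in kb (log scale) for all 10317 merged regions with a peak in replicates 2 and 3. The 661 long domains are the right tail of 1 continuous distribution, with no gap at 8 kb, and a single domain lies beyond 60 kb, at 88.4 kb.

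Chromosome 2 held the most domains (72), followed by chromosomes 11 (59) and 5 (58), while X held 8 and Y none. Some domains lay close together: of 641 pairs of neighbours on a chromosome, 98 were less than 20 kb apart.

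H3K27me3 replicate 1, which the choice of domains did not use, had a peak in 601 domains (90.9%) against 27.5% of the shorter regions. Its peaks were short, with a median of 421 bp inside the domains, and they covered 12.4% of the domains' bases against 6.28% in the shorter regions. No domain was covered to 50% by replicate 1. This list also had peaks at an end of 9 of 20 housekeeping genes, where replicates 2 and 3 had none.

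The library labelled H3K4me3 replicate 1 went against its label. Its peaks overlapped all 661 domains, covered 89.6% of their bases and filled at least 50% of 654 of them. Outside H3K27me3 regions it had 0.696 summits per Mb, against 7.52 for H3K4me3 replicate 2, and it had no peak at the 20 housekeeping genes, where replicate 2 had 17. H3K4me3 is therefore described from replicate 2 alone. As a check of the tissue label, H3K27ac peaks lay at an end of 8, 11 and 11 of 12 neuron markers in replicates 1, 2 and 3, against 23.6%, 55.4% and 58.8% of all protein-coding genes and 12, 19 and 20 of 20 housekeeping genes. The counts were 2, 5 and 3 of 6 glia and neural crest markers, 3, 4 and 3 of 6 otic epithelium markers, and 1, 2 and 5 of 6 mesenchyme markers. They were 0, 1 and 2 of 4 endothelial markers, 0, 1 and 1 of 4 blood markers and 0, 0 and 1 of 3 muscle markers. Acetylation at markers of other cell types was thus present in each replicate, and its part in the results was not tested.

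Transcription factor genes of early development lay in many of the domains. Of 21887 protein-coding genes, 623 had a start or an end inside a long domain, a background of 2.85%, and 207 lay wholly inside. The 7 lists of transcription factor families contributed 158 of these genes, which was 56.4% of the 280 genes on the lists and 25.4% of the 623. The lists and the domains were both chosen with results of these data in view, and the counts are a description.

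The Hox genes, which give cells their position along the body axis, were covered most completely. A long domain held an end of 36 of 39 (92.3%), and the other 3, Hoxa2, Hoxb2 and Hoxd1, had an end in a shorter region. The Hoxc cluster was covered over 93.1% of its 115.7 kb span by 5 domains, and the Hoxa cluster over 81.9% of 105.5 kb by 4. The Hoxb cluster was covered over 67.6% of 173.9 kb by 5 domains and the Hoxd cluster over 63.3% of 96.9 kb by 3. Breaks between neighbouring domains were as short as 0.288 kb in Hoxc, 0.309 kb in Hoxb and 0.577 kb in Hoxa, whereas the smallest in Hoxd was 5.11 kb. The widest break, 41.4 kb, was in the Hoxb cluster. In the domains of the Hoxa, Hoxb, Hoxc and Hoxd clusters, H3K27ac replicate 1 had 0, 1, 0 and 0 summits, replicate 2 had 1, 0, 0 and 0, and replicate 3 had 5, 3, 0 and 1.

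Other homeobox genes followed, with 68 of 100 (68%) having an end in a long domain and another 26 an end in a shorter region only. The members with most bases under domains were Lmx1b (29.4 kb in 2 domains), a LIM homeodomain factor of limb and midbrain, Pax2 (27.1 kb in 2), a factor of the otic vesicle and kidney, Lhx2 (25.4 kb in 2), a factor of forebrain and eye, and Pax6 (24.2 kb in 1), a factor of eye and forebrain. Isl1 and Pou4f1 were among the members with no end in any both-list region. Isl1 itself had 3 shorter regions at the gene or within a few kilobases of it, the widest 5.73 kb within the gene, and Pou4f1 had 2, the widest 6.66 kb beside it.

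Among GATA, Zic, Gli, Sall and Osr zinc finger genes, 12 of 20 (60%) had an end in a long domain. Gata4, a factor of heart and endoderm, had 32.4 kb under 2 domains, Zic4 23.3 kb under 2 and Gata2 13.1 kb under 1. T-box genes counted 8 of 16 (50%), led by the limb and heart factor Tbx5 with 37.5 kb under 2 domains and by Tbx15 with 20.2 kb. Forkhead genes counted 16 of 44 (36.4%), among them the endoderm and floor plate factors Foxa1 and Foxa2. Neural bHLH genes counted 13 of 42 (31.0%), among them Neurod2, Hand2 and the blood factor Tal1, and another 20 had an end in shorter regions only, including Neurog1 and Neurod1, which drive the formation of inner ear neurons. Sox genes counted 5 of 19 (26.3%).

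Signalling ligands differed by family. Wnt genes counted 13 of 19 (68.4%) and the other 6 had an end in shorter regions, and Wnt10a lay wholly inside a 22.4 kb domain. Fgf genes counted 3 of 22 (Fgf3, Fgf4 and Fgf8) and Bmp and Gdf genes 2 of 21 (Bmp7 and Gdf7). No olfactory receptor gene (of 1110), clustered protocadherin gene (of 57) or housekeeping gene (of 20) had an end in a long domain. The protocadherin and housekeeping lists are too small for this to be read against the background of 2.85%.

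Of genes known from neurons, none of the 12 neuron markers had an end in a long domain, a count too small to read against the background of 2.85%, and 7 had an end in a shorter region. Of 24 transcription factors of inner ear neurons, 4 did, among them Gata3, needed for auditory neurons, Hmx3, a factor of the vestibular inner ear, and Onecut2. Runx3, a factor of sensory neurons, had 23.8 kb under a domain that held neither outer end of the gene. That domain did hold an annotated Runx3 start, 7.07 kb from its downstream edge. Of 26 genes for neuronal cytoskeleton, synapse and receptor proteins, 3 did, among them Ret, the GDNF receptor, and Nefh, the heavy neurofilament. Among markers of other cell types, an end in a long domain was found for 1 of 6 glia and neural crest genes (Foxd3) and 1 of 6 otic epithelium genes (Pax2). It was found for 1 of 3 muscle genes (Pax7) and 3 of 6 mesenchyme genes (Prrx1, Foxc1 and Pdgfra). None of 4 blood and 4 endothelial genes had one, and these lists are also too small to read against the background.

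**Figure D2:**
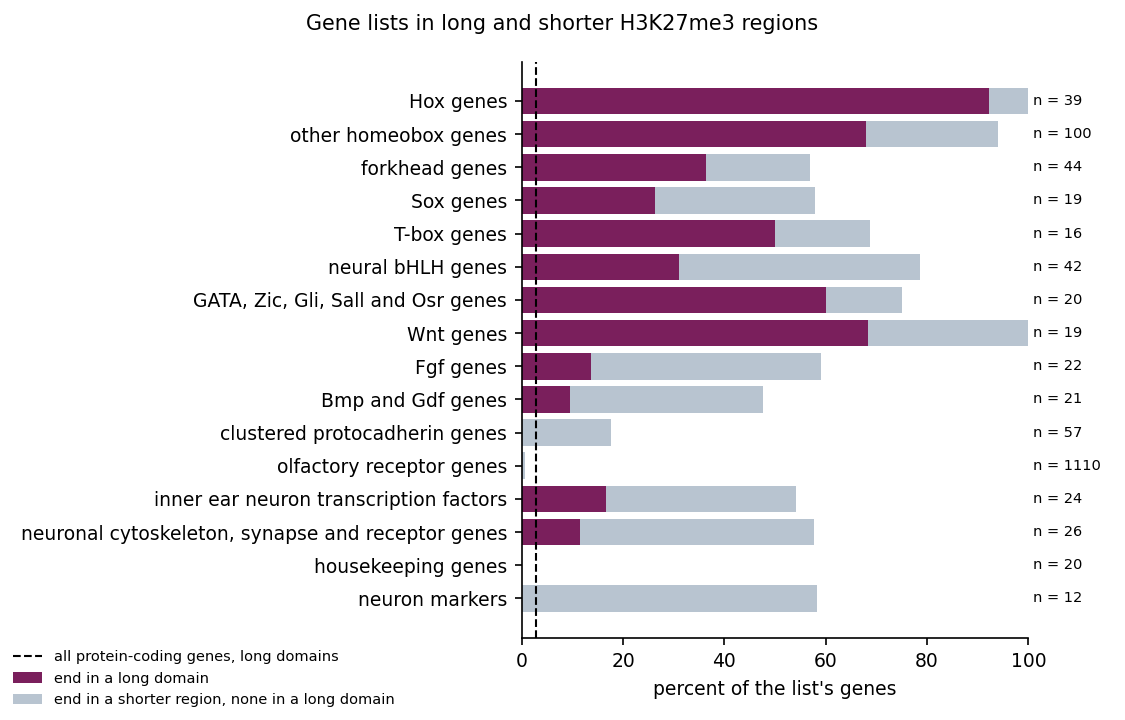
Percent of the genes of 16 lists with an end in a long domain (dark) or only in a shorter both-list region (light), with the number of genes beside each bar and the background of 2.85% as a dashed line. Hox genes reach 92.3% and the other homeobox and Wnt genes 68% and 68.4%, while olfactory receptor, protocadherin, housekeeping and neuron marker genes are at 0 for long domains. Except for olfactory receptors, the lists at 0 are too small to read against the background.

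A gene end was in 76.4% of the long domains and 29.8% of the shorter regions, but per length the domains were poorer in gene ends. They held 98.0 gene ends per Mb against 132.8 in shorter regions, a log2 ratio of -0.44, and 16.1 over the genome. The direction turned with the H3K27me3 replicate 3 list alone, at 0.11. A single gene had an end in 395 domains, 2 genes in 90 and 3 or more in 20. In 275 domains with 1 annotated start, the domain reached a median of 4.67 kb upstream and 6.20 kb downstream of it, and 173 (62.9%) reached farther downstream. The remaining domains divided into 68 that overlapped genes without holding an outer end of one and 88 that overlapped no protein-coding gene. Some of the 68 held an annotated start inside the gene, as at Wnt6, Lhx4, Runx3 and Pou2f2.

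MicroRNA genes were among what the protein-coding annotation missed. In the gene annotation, 31 of 1228 microRNA genes overlapped 26 domains. Hairpins of 24 microRNAs, 2.39% of the 1005 in the separate hairpin table, lay in 20 domains. They are shown because several share the seed that pairs with target transcripts. The mature sequences are given 5′ to 3′ with the seed, bases 2 to 8, in capitals (RefSeq, GRCm38.p6).
miR-10a-5p: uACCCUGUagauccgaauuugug
miR-10b-5p: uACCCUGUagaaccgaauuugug
miR-196a-5p: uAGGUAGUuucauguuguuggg
miR-196b-5p: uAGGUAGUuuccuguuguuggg
miR-132-3p: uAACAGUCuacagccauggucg
miR-212-3p: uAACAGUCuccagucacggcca
miR-9-5p: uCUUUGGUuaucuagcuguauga
The miR-10 pair lay in the Hoxb cluster (30.2 kb domain) and the Hoxd cluster (35.5 kb domain). The miR-196 genes lay in the Hoxb, Hoxc and Hoxa clusters, Mir196a-1 in a 21.1 kb domain, Mir196a-2 in one of 21.7 kb and Mir196b in the one of 56.6 kb. Mir132 and Mir212, a neuronal pair with a shared seed, lay in 1 domain of 11.3 kb. Mir9-1 (28.6 kb domain) and Mir9-3 (20.4 kb domain), whose product acts in neural progenitors, lay in domains that overlapped no protein-coding gene. The widest domain of that kind, 33.5 kb at chr7:79529451-79562902, overlapped the host transcript of Mir9-3, whose hairpin lay in its 20.4 kb neighbour. Of the 88 domains without a protein-coding gene, 43 overlapped an annotated long noncoding RNA.

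ISL1 and POU4F1 summits were denser in the long domains than in the genome outside H3K27me3. ISL1_26 replicate 1 had 77.8 summits per Mb in the domains and 34.2 outside. ISL1_70 replicates 1, 2 and 3 had 60.7, 82.6 and 41.4 per Mb in the domains against 28.7, 8.35 and 14.9 outside. POU4F1 replicates 1 and 2 had 31.2 and 16.1 per Mb against 12.2 and 10.5. All 6 libraries were higher in the domains, by a mean of 1.5 ± 0.93 on the log2 scale (SD, n = 6), or 2.84-fold (exact sign-flip permutation test over libraries, two-sided, p = 0.03125, the smallest that 6 libraries allow). The 6 libraries are of 2 factors from 1 tissue, and the test asks only whether they share a direction. The outside length includes unassembled and unmappable bases, whose part in the difference was not tested.

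The domains did not differ from shorter regions in the same measure beyond the spread between libraries. ISL1_26 had 102.8 summits per Mb in shorter regions, the ISL1_70 libraries 88.2, 49.3 and 38.4, and the POU4F1 libraries 36 and 19.4. The mean log2 ratio of domains over shorter regions was -0.09 ± 0.46 (SD, n = 6), with 2 of 6 libraries positive (exact sign-flip permutation test, two-sided, p = 0.65625). The mean turned to 0.11 with the H3K27me3 replicate 3 list alone and to 0.01 outside windows of 1 kb around gene ends.

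ISL1_70 replicate 2 stood apart. It had the shortest ISL1 list (24573 peaks), and 2.94% of its peaks lay in long domains, whereas the other 3 ISL1 libraries had 0.661% to 0.869%. Without it, the ratio of domains over outside was 1.14 on the log2 scale and that over shorter regions -0.26.

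**Figure D3:**
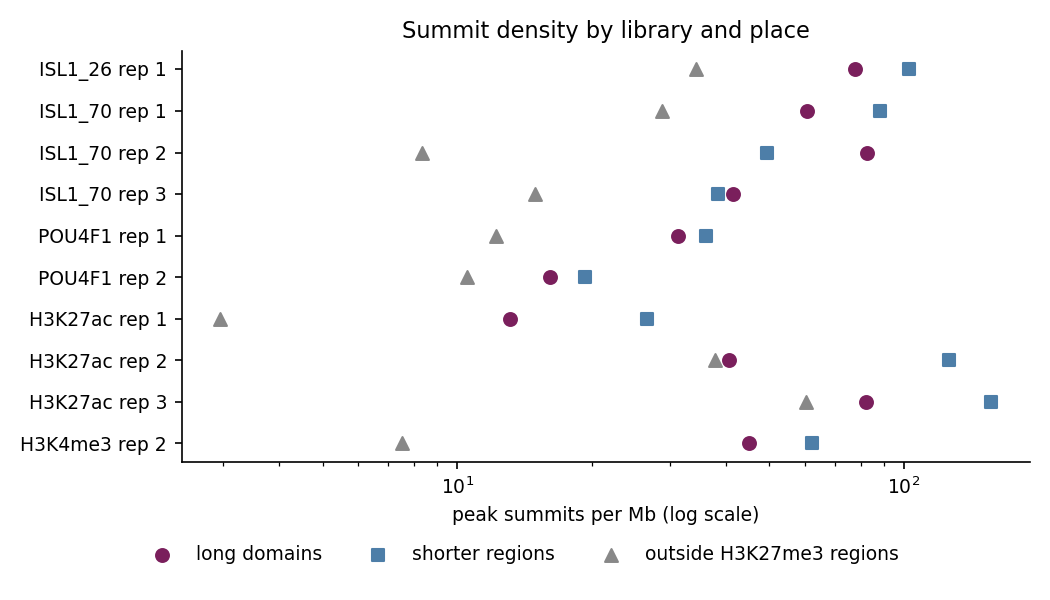
Peak summits per Mb (log scale) of 10 libraries in long domains (circles), shorter both-list regions (squares) and the genome outside H3K27me3 regions (triangles). The 6 factor libraries are higher in domains than outside, ISL1_70 replicate 2 by the most (82.6 against 8.35), while the 3 H3K27ac libraries and H3K4me3 replicate 2 are lower in domains than in shorter regions.

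Counted by domain, ISL1 was widespread and differed in which domains it took between libraries. A summit lay in 415 domains (62.8%) for ISL1_26, against a background of 25.4% over both-list regions of any width. For ISL1_70 replicates 1, 2 and 3 the counts were 331 (50.1%, background 21.7%), 411 (62.2%, background 14.7%) and 266 (40.2%, background 11.1%). POU4F1 had a summit in 207 (31.3%, background 10%) and 110 domains (16.6%, background 5.56%). A wider region has more room for a summit, so these shares are not comparable with those of narrower regions. Summits of all 4 ISL1 libraries lay in 84 domains, of 3 in 179, of 2 in 204, of 1 in 142 and of none in 52. Both POU4F1 libraries had a summit in 47. No matching shares over both-list regions of any width were computed for these joint counts, which describe the domains only.

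ISL1 regions, in which peaks of 2 or more ISL1 libraries overlap, numbered 280 in the domains. Of these, 9 (3.21%) had all 4 libraries, a smaller share than the 3.92% in shorter regions and the 7.86% outside. The 280 regions lay in 211 domains (31.9%, background 10.1%). Their density was 32.0 per Mb in the domains, 36.6 in shorter regions and 7.09 outside. By H3K27ac replicates 2 and 3, a smaller share of those in domains was acetylated. Replicate 2 overlapped 53 of 280 (18.9%) in domains, 50.2% of 892 in shorter regions and 57.8% of 18938 outside, and replicate 3 gave 23.9%, 51.6% and 56.7%. Replicate 1, the shortest H3K27ac list, gave 7.5%, 14.1% and 6.67%, and so was not lower in domains than outside. H3K4me3 replicate 2 overlapped 20.0%, 27.6% and 11.6%. POU4F1 replicate 1 overlapped 7.5%, 13.9% and 14.5%, and replicate 2 in the other order 7.86%, 5.27% and 3.27%. Neither mark overlapped 165 (58.9%) of those in domains against 33.4% and 31.6%.

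Taken library by library, the share of factor summits inside an H3K4me3 replicate 2 peak was higher in domains than outside. In ISL1_26 it was 7.5% in domains and 2.56% outside, and in the ISL1_70 libraries 7.91%, 5.96% and 6.63% against 3.99%, 2.81% and 2.21%. In the POU4F1 libraries it was 4.03% and 12.1% against 2.43% and 1.70%. All 6 libraries were higher in domains, by a mean log2 ratio of 1.46 ± 0.75 (SD, n = 6; exact sign-flip permutation test, two-sided, p = 0.03125, the smallest possible). In shorter regions the shares were 10.2% for ISL1_26, 16%, 8.99% and 10.3% for ISL1_70, and 14.4% and 10.2% for POU4F1, above those in domains in 5 of 6 libraries, a difference that was not tested. With domains of at least 16 kb the ratio over outside was 1.52 and p rose to 0.0625. Without the 11 domains over rRNA or tRNA genes, described below, it was 1.19 ± 0.42 (SD, n = 6; exact sign-flip permutation p = 0.03125). The 12.1% of POU4F1 replicate 2 was 17 of its 141 summits in domains, and 20 of the 141 lay in those 11 domains.

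The share inside an H3K27ac replicate 2 peak was lower in 5 of 6 libraries, at 3.74% to 10.5% for ISL1 in domains against 15.7% to 19.9% outside. POU4F1 replicate 1 had 8.42% against 14.7%, and POU4F1 replicate 2 went the other way with 7.09% against 6.33%. The mean log2 ratio was -1.06 ± 0.85 (SD, n = 6) and did not pass 0.05 (exact sign-flip permutation test, two-sided, p = 0.0625). With H3K27ac replicate 3 it was -0.69 ± 0.59 (SD, n = 6; p = 0.0625 by the same exact test). These ratios moved with the minimum width. At 16 kb both passed, at -2.17 and -1.5 (exact sign-flip permutation p = 0.03125 for each), and at 5 kb they were -0.43 and -0.17 (exact sign-flip permutation p = 0.15625 and 0.53125).

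Factor summits lay more often toward the centre of a domain. The central 50% of the width held 381 of 680 summits of ISL1_26, and 280 of 531, 443 of 722 and 198 of 362 of the ISL1_70 libraries. For POU4F1 it held 149 of 273 and 81 of 141. All 6 libraries had more summits in the centre than in the flanks, by a mean of 0.36 ± 0.18 on the log2 scale (SD, n = 6), or 1.28-fold (exact sign-flip permutation test, two-sided, p = 0.03125, the smallest possible). The ratio was 0.34 outside gene-end windows and 0.30 without ISL1_70 replicate 2. H3K4me3 replicate 2 had 255 of 393 summits in the centre, a log2 ratio of 0.89. The H3K27ac libraries had 66 of 115, 176 of 355 and 376 of 717. H3K27me3 replicate 1, which the choice of domains did not use, had 1275 of 2127 in the centre, a log2 ratio of 0.58. The library labelled H3K4me3 replicate 1 had 650 of 1305, a log2 ratio of -0.01. Central placement was thus not particular to the factors.

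**Figure D4:**
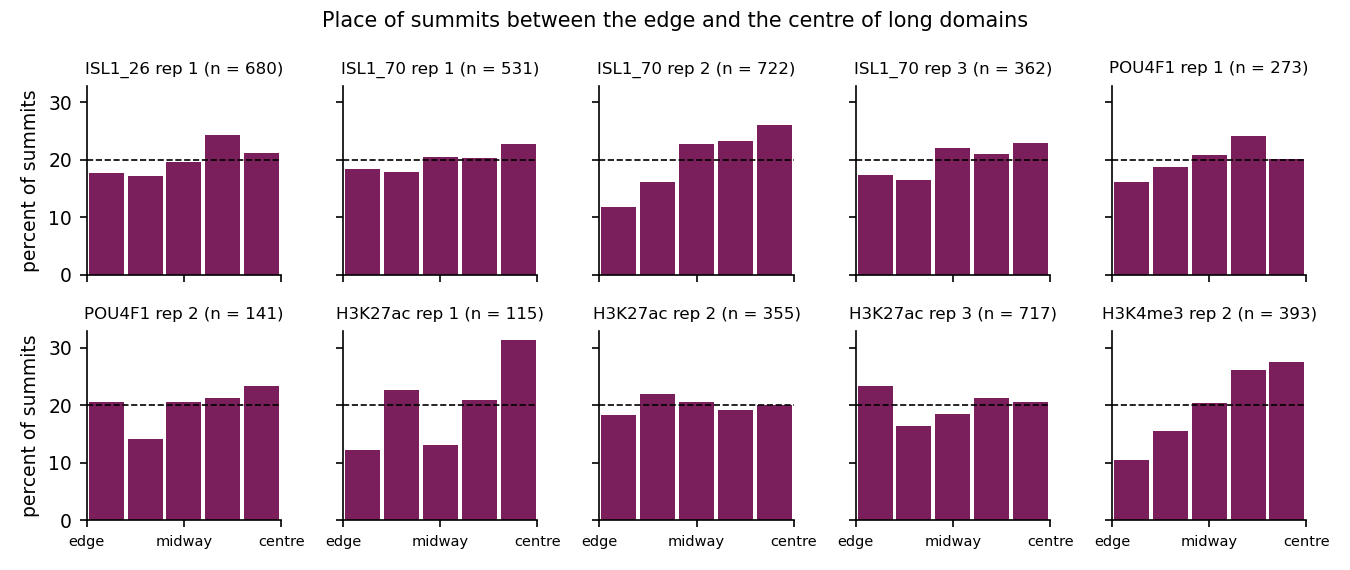
Percent of summits inside long domains in 5 bins of equal width from the nearer edge to the centre, 1 panel a library, with the dashed line at the 20% that even placement gives. H3K4me3 replicate 2 goes from 10.4% in the outermost bin to 27.5% in the innermost and ISL1_70 replicate 2 from 11.8% to 26%, while H3K27ac replicates 2 and 3 keep near the line.

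Islands of H3K4me3 and H3K27ac broke into the domains but were thinner there than in shorter regions. H3K27ac replicates 1, 2 and 3 had 13.2, 40.6 and 82.0 summits per Mb in the domains against 26.7, 126.2 and 156.7 in shorter regions. All 3 were lower in domains, by a mean log2 ratio of -1.20 ± 0.38 (SD, n = 3), or 0.436-fold (exact sign-flip permutation test, two-sided, p = 0.25, the smallest that 3 libraries allow). H3K4me3 replicate 2 had 45.0 per Mb against 62.2, a log2 ratio of -0.47 in 1 library. Against the genome outside, all 4 libraries were denser in domains, with H3K27ac at 2.95, 37.8 and 60.2 per Mb there and H3K4me3 at 7.52.

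H3K4me3 replicate 2 had a summit in 282 domains (42.7%, background 16.1%). H3K27ac had one in 92 (13.9%, background 6.68%), 221 (33.4%, background 27.2%) and 374 (56.6%, background 33.9%) in replicates 1, 2 and 3. Both H3K4me3 replicate 2 and H3K27ac replicate 2 were in 135 domains, H3K4me3 without any H3K27ac library in 69, and neither H3K4me3 nor any H3K27ac library in 151. H3K4me3 and all 3 H3K27ac libraries met in 40. These joint counts were not computed for shorter regions, so they do not set the long domains apart. Of 384 H3K4me3 replicate 2 peaks wholly inside domains, 76 (19.8%) overlapped a peak of H3K27ac replicate 2 and 89 (23.2%) one of replicate 3. In shorter regions these shares were 57.5% and 55.6%, and outside 41.2% and 40.8%. The H3K4me3 islands were short (median 542 bp, longest 5.45 kb), and 25.0% of their summits lay within 1 kb of an annotated start, against 48.0% in shorter regions.

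Among the 623 genes with an end in a domain, 152 (24.4%) had an H3K4me3 replicate 2 summit within 1 kb of an end, below the 35.7% of all protein-coding genes. ISL1 summits of 2 or more libraries lay there in 165 (26.5%), above the 19.8% of all protein-coding genes. Of the 36 Hox genes the counts for H3K4me3 and ISL1 were 5 and 8, and of the 68 other homeobox genes 18 and 25. Of the 13 Wnt genes the counts were 6 and 2.

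Single domains ranged from nearly bare to almost filled with islands. The longest was not a developmental locus: the 88.4 kb at chr8:123536479-123624877 beside Gas8 held 48 of the 63 annotated rRNA genes of the table, an array of 5S ribosomal RNA genes. ISL1_70 replicate 2 had 43 summits in it, against 2, 4 and 9 for the other ISL1 libraries, 6 and 3 for POU4F1, 10 for H3K4me3 replicate 2, and 0, 1 and 3 for H3K27ac. In all, 11 domains overlapped rRNA or tRNA genes. These loci exist in many near-identical copies, reads from them cannot be assigned to 1 copy, and the mapping filter is not given in the sources used here. Without the 11 domains, the mean log2 ratio of factor summits per Mb was 1.44 over outside and -0.15 over shorter regions, and the central ratio was 0.36. The 35.4 kb domain at chr6:47651615-47687019, over 6 predicted genes and 1 rRNA gene, was also dense in every factor library. It held 9 ISL1_26 summits, 3, 16 and 3 ISL1_70 summits, 7 and 11 POU4F1 summits and 9 H3K4me3 replicate 2 summits. Its neighbours of 18.1 and 11.2 kb were the other 2 of the 3 domains richest in ISL1 summits per kb among those with all 4 ISL1 libraries.

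Next in length came the Hoxa3 to Hoxa9 domain (56.6 kb, chr6:52174555-52231151). In it ISL1_26 had 1 summit, the ISL1_70 libraries 1, 7 and 4, and the POU4F1 libraries 2 and 1. H3K27ac had no summit there in replicates 1 and 2, and 2 summits in replicate 3. Nfix, a nuclear factor I gene, was under 3 domains that covered 74.2 kb (76.8%) of it. The one of 49.97 kb held 3 H3K4me3 replicate 2 summits and 1 of H3K27ac replicate 2, whereas those of 15.5 and 17.7 kb had no H3K4me3 summit and 5 of H3K27ac replicate 2 each. The Hoxb3 to Hoxb9 domain (48.7 kb) and the Hoxc12 and Hoxc13 domain (41.4 kb) held no H3K27ac summit. The Hand2 domain (37.9 kb), over a factor of heart and limb, held 7 summits of ISL1_70 replicate 2 and 1, 1 and 0 of the other ISL1 libraries. The Dmbx1 domain (36.7 kb), over a homeobox factor of the midbrain, held summits of all 4 ISL1 libraries and 4 of H3K27ac replicate 3. The Hoxd3 to Hoxd8 domain (35.5 kb) and the Hoxc4 to Hoxc8 domain (35.4 kb) held 1 H3K4me3 replicate 2 summit each and no H3K27ac summit.

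The 5 domains with the widest islands for their width were those of Tbx2, Onecut1, Prdm12, Islr2 and Onecut2. Over Onecut1, a factor of developing neurons, H3K4me3 replicate 2 islands filled 51.1% of 13.3 kb and H3K27ac replicate 2 islands 40.0%, with 4, 2, 0 and 1 summits of ISL1_26 and ISL1_70 replicates 1, 2 and 3 and 2 of POU4F1 replicate 1. Over Prdm12, a regulator of pain-sensing neurons, they filled 29.2% and 53.6% of 11.7 kb. Over Islr2, whose promoter is shown above, they filled 21.6% and 47.3% of 10.5 kb, and ISL1_26 had 4 summits, ISL1_70 replicates 1, 2 and 3 had 3, 0 and 1, and POU4F1 replicate 1 had 2. Over Onecut2 they filled 38.5% and 25.5% of 9.15 kb. The domain of 8.17 kb over Tbx2, a T-box factor of several embryonic tissues, stood at 62.7% and 58.6%, with 4 summits of ISL1_70 replicate 1 and none of the other ISL1 libraries. These 5 were chosen for their islands, so the island values describe the choice. At Hmx2 and Hmx3 (18.4 kb), factors of the vestibular inner ear, H3K4me3 islands filled 14.5% and H3K27ac 17.1%, and 4 replicated ISL1 regions lay in the domain, but no POU4F1 summit.

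Domains with all 4 ISL1 libraries and most ISL1 summits per kb, after the chr6 cluster, included Irx1 (8.03 kb, with 2, 3, 1 and 1 summits of ISL1_26 and ISL1_70 replicates 1, 2 and 3), an Iroquois homeobox gene, and Pou2f2 (11.4 kb, with 4, 2, 1 and 2). The Pou2f2 domain held neither outer end of the gene but did hold an annotated start. Grhl3 (8.94 kb, with 2, 3, 1 and 1), an epidermal factor, and Ecel1 (11.8 kb, with 4, 1, 2 and 2), a peptidase of peripheral neurons, followed. Ret (8.04 kb) had 2, 2, 1 and 1, and Helt (9.45 kb), a bHLH factor, 1, 2, 3 and 1. H3K27ac replicate 2 islands filled 35.5% of the Irx1 domain and 11% of the Ret domain, and Pou2f2, Grhl3, Ecel1 and Helt had none. In H3K27ac replicate 3, the Irx1, Grhl3, Ecel1 and Helt domains had 2 summits each, Ret 1 and Pou2f2 none. Domains with both POU4F1 libraries and most such summits per kb, after the chr6 cluster, were those of Sp5 (8.10 kb, with 2 and 1), a target of Wnt signalling, Hapln2 (8.30 kb, with 1 and 2), a matrix linker protein, Ndufa4l2, Shmt2 and Stac3 (11.2 kb, with 3 and 1) and Cbln1 (8.75 kb, with 1 and 2), a synapse organiser.

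At genes of inner ear neurons, the Gata3 domain (11.4 kb) held 1, 1, 3 and 1 ISL1 summits in the same order, 1 and 1 of POU4F1, and islands over 4.9% (H3K4me3) and 10.1% (H3K27ac replicate 2). The Runx3 domain (23.8 kb) held 2, 3, 2 and 1 ISL1 summits, 1 and 0 of POU4F1 and no H3K27ac replicate 2 summit. Nefh (12.1 kb) held 2, 1, 1 and 1 ISL1 summits and none of POU4F1. At the other extreme, 10 domains held no summit of any of the 10 factor, H3K27ac and H3K4me3 replicate 2 libraries. The matching share of shorter regions was not computed. Among the 10 was the 10.4 kb domain over Gata4. The second Gata4 domain, of 25.4 kb, had 1, 0, 2 and 1 ISL1 summits and 2 of H3K27ac replicate 3.

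**Figure D5:**
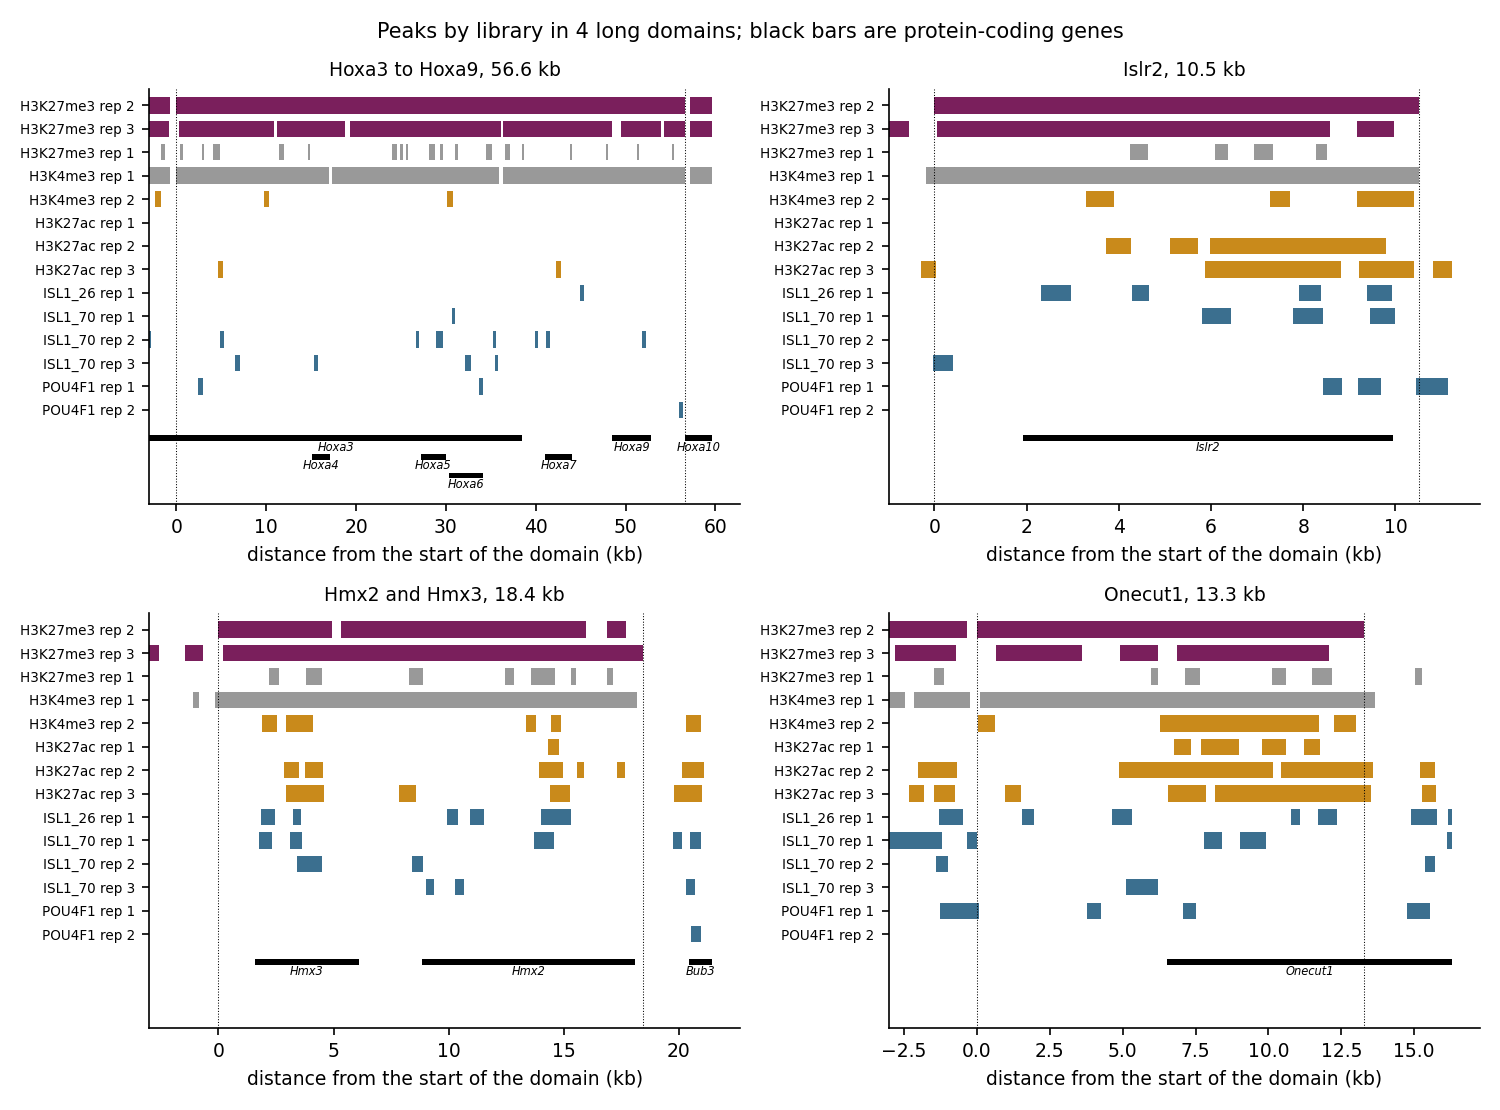
Peaks of 14 libraries in 4 long domains (between dotted lines), with distance from the domain's start in kb on the x axis and protein-coding genes as black bars. The Hoxa3 to Hoxa9 domain holds short scattered factor peaks, no H3K27ac peak in replicates 1 and 2, and 2 H3K27ac summits in replicate 3. In the Islr2, Hmx2 and Hmx3, and Onecut1 domains H3K4me3 replicate 2 and H3K27ac replicates 2 and 3 form islands within the merged H3K27me3 region. Replicates 2 and 3 of H3K27me3 both covered 88.7% of the Islr2 domain and 71.5% of the Onecut1 domain.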

How the data were processed

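Peak lists of 14 CUT&Tag libraries of E11.5 CVG were used, 1 list a library. Per the file headers (the peak names), the authors called peaks with MACS2 against a control; the submitters' processing notes name mm10 as the build and FastQC, Bowtie2 and SEACR as tools, with no version. The options and control library were not found in any label or header. The deposited columns used are each peak's fold enrichment, a ratio to local background, and −log10 of its q-value, with 1 as the lowest −log10 q of each list. Read depth is unknown, and lists held 8855 to 168144 peaks, which limits every absence of a peak.

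With Python 3.11.15, numpy 2.4.6, pandas 2.3.3 and scipy 1.17.1, peaks on chromosomes 1 to 19, X and Y that overlapped by 1 bp were merged. A library's summit was counted in long domains, in shorter regions with peaks in both lists, and outside all merged regions, and densities became log2 ratios, 1 value a library. Tests were two-sided exact sign-flip permutation tests over libraries at 0.05. The recovery of the density ratios, but not the error rate of the tests, was checked on simulated peaks. Genes, promoters and microRNAs came from RefSeq tables of GRCm38.p6, whose chromosomes are those of mm10; the gene table gives no strand, so a gene end is either end.

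The members, the 22 gene lists and the tests were chosen with earlier results of these data known. Named genes are Isl1 and Pou4f1, those of the 10 longest domains, up to 4 members a list with the longest length covered, and those of the domains leading in ISL1, POU4F1 and islands; Hmx2 and members of short counts or of shorter-only sets were named after their values were seen. Shares of factor summits in marks, domains without rRNA or tRNA genes and the central ratio outside gene ends were added after the data were examined. Values of some single genes are left out.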

Additional observations from a re-analysis of the deposited data

Results flagged for a closer look

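ISL1_70 replicate 2 had 2.94% of its peaks in long domains, far from the 0.661% to 0.869% of the other 3 ISL1 libraries. The same library had 43 summits in the domain over the 5S rRNA array, against 2, 4 and 9. These 2 flags come from 12 measures of the 4 ISL1 libraries, chance flags about 1 group in 20, and the count of 43 is only just past the critical value. The library labelled H3K4me3 replicate 1, which entered no test, covered 89.6% of the bases of the long domains, where H3K4me3 replicate 2 covered 3.09%.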

How the results depend on the processing

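The number of long domains was 384 with the H3K27me3 replicate 2 list alone, 139 at 16 kb, 1797 at 5 kb and 1152 when peaks up to 1 kb apart were merged, and stayed between 593 and 660 in the other 4 settings tried. The factor ratio of domains over shorter regions reversed to 0.11 with the replicate 3 list alone and to 0.010 outside gene-end windows (-0.23 to -0.06 in the other 7), and passed the threshold in none. The log2 ratio of gene ends per Mb, domains over shorter regions, was -0.44, and became -0.63 at 16 kb, -0.22 at 5 kb and 0.11 with the replicate 3 list alone. The cause was not tested. The factor ratio over outside stayed between 1.44 and 1.6 in 8 settings, and the central ratio between 0.27 and 0.50 in 8. The H3K27ac ratio stayed between -1.46 and -0.90 in 8. At 16 kb the share of factor summits in H3K27ac became -2.17 (replicate 2) and -1.5 (replicate 3), both past the threshold, and at 5 kb -0.43 (p = 0.15625) and -0.17 (p = 0.53125), both by the exact permutation test; that in H3K4me3 became 1.52 with p = 0.0625 by the exact permutation test.

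Leaving out 1 library at a time gave -0.26 to -0.00311 for factors over shorter regions, 1.14 to 1.68 over outside, 0.295 to 0.397 for the centre, -1.33 to -0.98 for H3K27ac, 1.19 to 1.61 for the share in H3K4me3, and -1.30 to -0.79 and -0.88 to -0.54 for the shares in H3K27ac replicates 2 and 3. With 5 libraries the smallest exact p is 0.0625, so no such fit could pass. Each test is itself paired by library, because it compares places within the same library. No paired analysis was possible across libraries of the same replicate number, because no groups of libraries are compared. Depth is unknown, so a place without a summit shows only that no peak was called there.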
